A study of Mus musculus with 6 samples.

Results

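The HIF-2α inhibitor PT2385 was compared with its vehicle in mouse primary myoblasts kept at 4% pO2, the milder of the hypoxic conditions. The comparison used 2 of the 6 RNA-seq libraries of the series, 1 with vehicle and 1 with PT2385, and 11967 of the 54834 genes listed (21.8%), those with a mean of at least 1 FPKM over the 6 libraries. FPKM is the number of sequenced fragments scaled to transcript length and to all mapped fragments of the library. All libraries came from Pax7-ZSGreen myoblasts, which had been derived from sorted muscle satellite cells and adapted to 20%, 4% or 1% pO2 for more than 2 weeks. At each pO2 the cells received 0.1% DMSO, the vehicle, or 1 uM PT2385 for 48 h. For each condition RNA of 9 cultures, made at 3 separate times, was pooled into 1 library. The 4% libraries therefore had no replicates, and no p-value can be given for the difference between them alone.

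HIF-2α is the oxygen-labile subunit encoded by *Epas1*. When oxygen is low, the HIF prolyl hydroxylases mark less of it for destruction by the VHL ubiquitin ligase, it pairs with ARNT, and the pair binds hypoxia response elements with the core RCGTG near its target genes. PT2385 occupies a pocket in the PAS-B domain of HIF-2α and keeps it from pairing with ARNT, while HIF-1α, the more widely expressed relative that drives most glycolytic targets, is spared. Myoblasts are dividing muscle precursors, which on differentiation leave the cell cycle, switch on myogenin and the sarcomere genes, and fuse into multinucleated fibres.

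Among the gene lists examined at 4% pO2, the genes of the contractile apparatus had the largest share of members that were lower with PT2385. That list, called contractile here, also holds genes outside the contractile filaments, among them *Ckm* and *Vim*. Of 26 measured sarcomere and contraction genes, 12 were at least 0.5 lower with PT2385 on the log2(FPKM + 1) scale and 0 were at least 0.5 higher, with a median of -0.42. Over all 11967 genes, 2.43% were at least 0.5 lower and 2.47% at least 0.5 higher, with a median of 0.0003. Of 50 shared HIF target genes 0 passed 0.5 in either direction. Both counts depended on weakly expressed members: with a pseudocount of 0.1, 13 of the 26 contractile genes and 3 of the 50 HIF targets (*Pfkfb4*, *Car12* and *Rora*) were at least 0.5 lower. Of these HIF targets, *Car12* and *Rora* passed the filter only through vehicle at 4% pO2. Among members averaging 5 FPKM or more the counts were 6 of 17 and 0 of 43, and the contractile median was -0.16. Among protein-coding genes with a proper name and a mean of at least 5 FPKM, the lowest and the highest were not muscle genes: *Gpx3*, a secreted glutathione peroxidase, was lower, and *Slc10a7*, a membrane transporter of the bile acid carrier family that is needed for calcium balance and glycosylation, was higher. All differences are PT2385 minus vehicle on this scale, so a value of 1 is 2-fold for a well-expressed gene and less than the true fold for a weakly expressed one.

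The depth of the libraries was inferred from the smallest FPKM steps of single-transcript genes. With the unit taken as FPKM, it came to about 22052000 fragments for vehicle and 18843000 for PT2385 at 4% pO2, against 21137000 to 21567000 for the other 4 libraries, so the PT2385 library was the shallowest of the 6. The central 95% of genes had differences from -0.49 to 0.50 at 4% pO2, from -0.40 to 0.41 at 20% pO2 and from -0.38 to 0.40 at 1% pO2. By this range the spread was widest at 4% pO2, while the SD over all genes was 0.35 at 4%, 0.36 at 20% and 0.32 at 1% pO2. The part of depth in this was not tested. It narrowed with expression: 12.8% of the 3026 genes with a mean FPKM of 1 to 5 passed 0.5 in either direction, 3.72% of those from 5 to 20, 0.916% of those from 20 to 100, and 0.559% of the 895 genes at 100 or more.

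**Figure D1:**
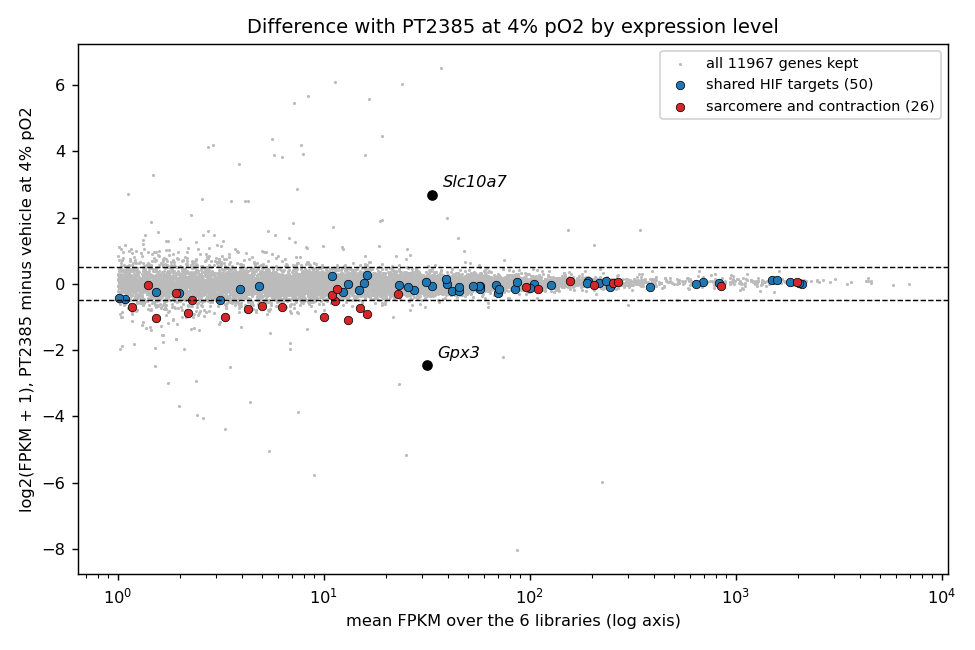
Difference between PT2385 and vehicle at 4% pO2, in log2(FPKM + 1), against mean FPKM over the 6 libraries on a log axis, 1 point per gene. Dashed lines mark 0.5 and -0.5. Contractile genes (red) lie at or below -0.5 for 12 of 26, shared HIF targets (blue) lie between the lines, and *Slc10a7* and *Gpx3* (black) are far from genes of like expression.

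At least 2-fold higher with PT2385 were 74 genes (0.618% of those tested), and 58 (0.485%) were at least 2-fold lower. Few of these encode proteins: 27 of 10853 protein-coding genes tested passed 2-fold in either direction (0.249%), against 37 of 523 pseudogenes (7.07%) and 46 of 110 small RNAs (41.8%). The 74 held 14 protein-coding genes, 28 pseudogenes and 23 small RNAs, and the 58 held 13 protein-coding genes, 9 pseudogenes and 23 small RNAs. Among genes past 0.5, protein-coding genes made up 115 of 296 that were higher and 180 of 291 that were lower. Pseudogenes made up 121 of those that were higher and 26 of those that were lower. Of the 11967 genes, 29 were listed at exactly 0 in 1 of the 4% libraries and at 5 FPKM or more in the other, 16 of them at 0 in vehicle and 13 at 0 with PT2385. These were set apart: 26 are small RNAs, 1 is a pseudogene and 2 are protein-coding. The latter are the predicted genes *Gm5269*, listed at 11.9 FPKM in vehicle and at 0 in the other 5 libraries, and *AL731706.2*, listed at 0 in vehicle and at 13.8 FPKM with PT2385.

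Of the contractile genes 4 were at least 2-fold lower: *Actc1* (-1.08), *Ckm* (-1.04), *Myl1* (-1.01) and *Tnnc2* (-1.004). The actins and myosin light chains, which form the filaments and their motors, are given first. *Actc1*, the cardiac actin that is also made in embryonic and regenerating skeletal muscle, had 24.9 FPKM in vehicle and 11.3 with PT2385 at 4% pO2, 20.4 and 10.3 at 20% pO2, and 6.56 and 5.66 at 1% pO2. *Acta1*, the actin of adult skeletal muscle, had 40.2 and 20.9 at 4% pO2, 9.71 and 7.07 at 20% pO2, and 9.38 and 9.73 at 1% pO2. *Myl1*, a fast myosin light chain, had 19.1 and 8.96 at 4% pO2, 12.5 and 7.08 at 20% pO2, and 6.54 and 6.28 at 1% pO2. For each of these genes the highest of the 6 values was that of vehicle at 4% pO2. Annotated genes on the opposite strand overlap *Actc1* over 6267 bases and *Acta1* over 2983, so reads may be shared. PT2385 minus vehicle came to -1.08 for *Actc1*, -0.91 for *Acta1* and -1.01 for *Myl1* at 4% pO2. A further gene of this kind, *Mylpf*, the fast regulatory light chain, had 27.1 and 16.0 FPKM at 4% pO2, 13.4 and 8.73 at 20% pO2, and 14.0 and 10.3 at 1% pO2. It was lower with PT2385 at every pO2, by -0.57, -0.72 and -0.41 at 20%, 4% and 1%.

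Of 8 troponin genes, which switch the filaments on, all were measured, 8 were below 0 and 3 were at least 0.5 lower. Of 7 myosin heavy chains 1 was measured. *Myh3*, the embryonic myosin heavy chain, had 12.6 FPKM in vehicle and 7.07 with PT2385 at 4% pO2, against 2.60 and 1.21 at 20% pO2 and 1.35 and 0.943 at 1% pO2. *Tnni1*, the slow troponin I, had 11 and 6.40 at 4% pO2, 5.93 and 4.58 at 20% pO2, and 5.92 and 3.56 at 1% pO2. Both were lower with PT2385 at all 3 pO2 levels. *Tnnc2*, the fast troponin C, had 7.46 and 3.22 at 4% pO2 and between 2.19 and 2.61 in the other 4 libraries. Its annotation overlaps the protein-coding gene *Ube2c* on the opposite strand over 1662 bases, so reads of both may be shared. *Tnnc1*, the slow and cardiac troponin C, had 21.7 and 14.9 at 4% pO2. Among other genes, *Ckm*, the muscle creatine kinase, had 2.81 and 0.858 FPKM at 4% pO2, and *Mb*, the oxygen store myoglobin, had 4.91 and 2.22. *Ttn*, the giant elastic protein of the sarcomere, had 3.53 and 1.78. The annotated gene *A930016O22Rik* overlaps *Ckm* on the opposite strand over 3952 bases, so reads of both may be shared. Of the members that were not lower, 3 were picked after their values were seen: *Des*, the muscle intermediate filament, was at 153 and 162 FPKM, *Vim*, vimentin, at 1781 and 1856, and *Tpm3*, a tropomyosin, at 261 and 265.

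In all 12 of the contractile genes that were at least 0.5 lower, vehicle at 4% pO2 was the highest of the 6 libraries. In 8 of the 12 the PT2385 value at 4% pO2 was still above all 4 libraries at 20% and 1% pO2. For comparison, vehicle at 4% pO2 was the highest library for 51.1% of the 180 protein-coding genes at least 0.5 lower with PT2385, and PT2385 at 4% pO2 lay above the other pO2 levels for 15.6% of them. These 12 genes were chosen for being lower than vehicle at 4% pO2, which favours such an order. Over all 26 measured contractile genes vehicle at 4% pO2 was the highest library in 16 (61.5%), against 17.8% of all genes kept, and in 4 of the 14 that were not at least 0.5 lower. PT2385 at 4% pO2 lay above the other pO2 levels in 11 of the 26 (42.3%), against 29.3% of all genes kept. At 20% pO2, 10 of the 26 were at least 0.5 lower (median -0.25), and at 1% pO2 1 was (median -0.03). Over all genes kept 1.59% were at least 0.5 lower at 20% pO2 and 1.25% at 1% pO2. In bulk RNA, fewer differentiating cells and less of these RNAs per cell cannot be told apart. Of the 26 genes 17 had a mean of at least 5 FPKM, and of these 6 were at least 0.5 lower. *Ttn* passed the filter on low values only through vehicle at 4% pO2, and without it the count was 11 of 25.

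**Figure D2:**
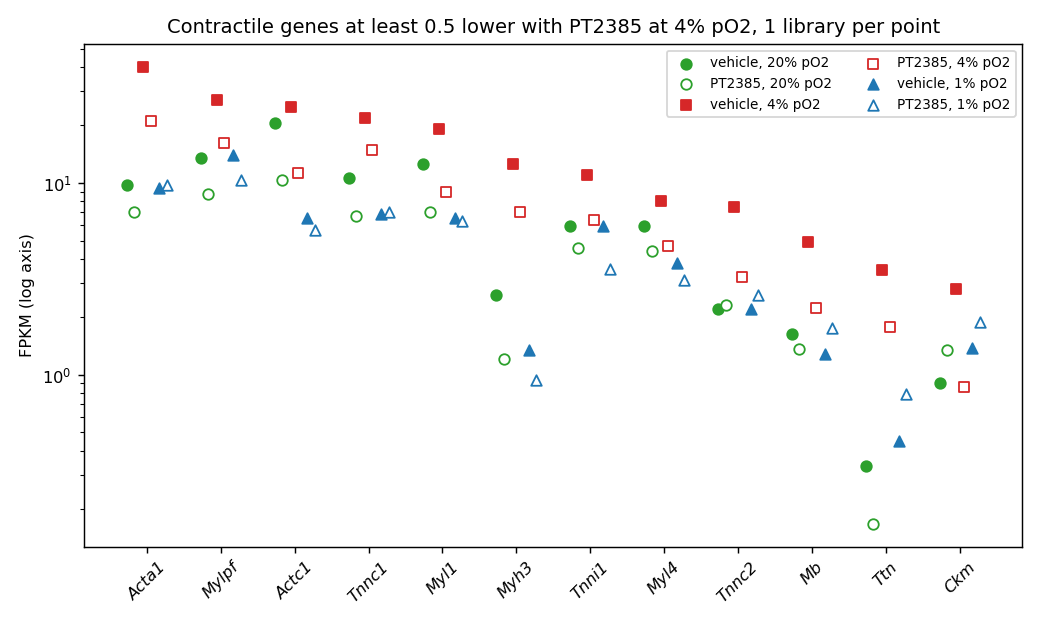
FPKM (log axis) of the 12 contractile genes that were at least 0.5 lower with PT2385 at 4% pO2, 1 point per library: filled symbols are vehicle, open symbols PT2385, and colours and shapes give the pO2. Vehicle at 4% pO2 (filled red square) is the highest point for every gene shown, and PT2385 at 4% pO2 (open red square) is second for 8 of the 12.

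The counting error on single genes was estimated by converting FPKM back to fragments. With the shortest and the longest annotated coding transcript, *Actc1* came to 166 and 807 fragments in vehicle and 64 and 313 with PT2385. The exact 95% binomial interval of the ratio of PT2385 to vehicle, 0.453, was 0.333 to 0.605 and 0.397 to 0.518. For *Myh3*, with a ratio of 0.562, it was 0.516 to 0.612 with either transcript, and for *Tnni1*, with 0.581, it was 0.417 to 0.788 and 0.472 to 0.717. None of these intervals reached 1. They cover counting error only, and neither the spread between cultures nor that between libraries. The same 4% values placed *Actc1* and *Tnni1* among the 20 lowest genes, and *Myh3* was named after its values were seen. This choice favours intervals that lie away from 1.

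Of 22 measured myogenic regulators 3 (13.6%, against 2.43% of all genes) were at least 0.5 lower and 0 at least 0.5 higher, with a median of -0.02. *Mymk*, the membrane protein myomaker that myoblasts need for fusion, had 9.40 FPKM in vehicle and 4.96 with PT2385 at 4% pO2, 4.35 and 2.40 at 20% pO2, and 5.74 and 5.38 at 1% pO2. *Smyd1*, a muscle methyltransferase needed for sarcomere assembly, had 5.78 and 3.37 at 4% pO2, and *Rb1*, the retinoblastoma protein that holds differentiating myoblasts out of the cell cycle, had 8.13 and 5.19. Protein-coding genes on the opposite strand overlap *Smyd1* (*Krcc1*, over 13643 bases) and *Rb1* (*Rcbtb2*, over 24171), so reads may be shared. *Myog*, myogenin, was at 16.8 and 14.3 FPKM at 4% pO2 and at 17.4 and 8.56 at 20% pO2, so its own difference was larger in normoxia (-0.94) than at 4% pO2 (-0.22). *Fst*, the myostatin antagonist follistatin, was the member with the largest positive difference, at 7.10 and 10.2 FPKM (0.47).

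Markers of myoblast identity were present in both libraries and differed little. The 11 measured myoblast markers had differences from -0.20 to 0.22. *Myod1*, the factor that commits cells to muscle, had 501 FPKM in vehicle and 584 with PT2385 at 4% pO2, and *Pax7*, the satellite cell factor, had 23.5 and 22.1. *Myf5*, a related early factor, was nearly absent, at 0.0224 and 0 FPKM. Of the 23 measured muscle stem cell and Notch genes 0 passed 0.5, with a range of -0.26 to 0.18, as did 0 of 47 mitosis genes (-0.16 to 0.16) and 0 of 56 DNA replication and repair genes (-0.34 to 0.24).

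Genes of membrane fusion, repair and the triad, the junction at which the action potential releases calcium, included few that passed 0.5: 2 of 25 fusion and membrane repair genes (8%, against 2.43% of all genes), *Mymk* and *Dysf*, and 1 of 17 triad genes were at least 0.5 lower, and 0 were at least 0.5 higher. *Dysf*, dysferlin, which patches wounded muscle membrane, had 2.53 FPKM in vehicle and 1.03 with PT2385 at 4% pO2, 3.29 and 1.19 at 1% pO2, and 0.341 and 0.270 at 20% pO2. It was thus low in normoxia and lower with the inhibitor in each hypoxic condition, with a ratio of 0.408 at 4% pO2 (counting interval 0.331 to 0.502 with the shortest coding transcript). The antisense gene *Gm15475* overlaps *Dysf* over 13236 bases and the same-strand pseudogene *Gm7498* over 1084, so reads may be shared. *Casq2*, a calsequestrin that stores calcium, had 3.55 and 1.10 FPKM at 4% pO2 and at most 0.911 elsewhere. It passed the filter only through vehicle at 4% pO2, and without it 0 of 16 triad genes were at least 0.5 lower. *Jph2*, a junctophilin that holds the triad membranes together, was at 2.47 and 1.58.

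Promoter windows are shown for 3 of the genes that were lower with PT2385 and for 1 HIF target that was not, to set the letters a HIF or muscle factor would bind beside the values. They run from 250 bases before to 50 after the transcription start and come from the RefSeq annotation of GRCm38.p6. Capitals mark, on either strand, the hypoxia response core (ACGTG or GCGTG) in *Dysf* and *Slc16a3*, the CArG box bound by serum response factor in *Actc1*, and the E-box CAGCTG bound by MyoD and myogenin in *Mylpf*.
Actc1 (chr2:114052826-114053125, minus strand): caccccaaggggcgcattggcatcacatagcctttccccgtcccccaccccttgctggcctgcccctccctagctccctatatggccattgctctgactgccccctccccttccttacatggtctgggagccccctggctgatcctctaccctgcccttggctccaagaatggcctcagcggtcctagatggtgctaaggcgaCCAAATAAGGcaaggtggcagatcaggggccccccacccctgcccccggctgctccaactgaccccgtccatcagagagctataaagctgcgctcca
Mylpf (chr7:127211358-127211657, plus strand): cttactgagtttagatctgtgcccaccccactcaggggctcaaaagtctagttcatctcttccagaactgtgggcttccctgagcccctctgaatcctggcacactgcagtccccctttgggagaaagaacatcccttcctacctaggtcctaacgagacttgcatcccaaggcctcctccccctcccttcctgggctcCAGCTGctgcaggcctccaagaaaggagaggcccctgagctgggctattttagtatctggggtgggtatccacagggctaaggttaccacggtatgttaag
Dysf (chr6:84008348-84008647, plus strand): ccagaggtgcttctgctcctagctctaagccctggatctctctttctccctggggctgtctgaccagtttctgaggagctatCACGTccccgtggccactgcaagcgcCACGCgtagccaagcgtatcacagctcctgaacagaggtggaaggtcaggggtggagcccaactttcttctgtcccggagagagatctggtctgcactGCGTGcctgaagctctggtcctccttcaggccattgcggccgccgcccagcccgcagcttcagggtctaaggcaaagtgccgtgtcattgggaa
Slc16a3 (chr11:120948817-120949116, plus strand): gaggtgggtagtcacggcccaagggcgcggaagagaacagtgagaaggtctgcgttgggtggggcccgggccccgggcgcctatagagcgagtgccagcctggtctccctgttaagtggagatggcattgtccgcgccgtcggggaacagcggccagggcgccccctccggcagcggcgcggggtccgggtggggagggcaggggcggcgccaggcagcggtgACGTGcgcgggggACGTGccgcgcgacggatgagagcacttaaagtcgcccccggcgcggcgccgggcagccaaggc
*Dysf* held 3 hypoxia response cores in the window shown and 1 in a second annotated window, and *Slc16a3*, a lactate exporter chosen for display after its values were seen, held 2. In their windows *Ace* and *Gpx3*, both lower with PT2385, held 0 cores, and *Slc10a7*, which was higher, held 2. Of the contractile genes whose windows are not shown, *Myl1*, *Acta1* and *Myh3* each held 1 hypoxia response core. The *Acta1* window also held 1 E-box and 1 CArG box. Expression of *Slc16a3* was at 354 FPKM in vehicle and 361 with PT2385 at 4% pO2, whereas *Dysf* differed by -0.80. These windows start only 250 bases before the transcription start. For *Ace*, the paper reports hypoxia response motifs within a longer promoter region and binding of HIF-2α to the regions that hold them. In its luciferase assay HIF-2α raised the activity of the *Ace* promoter. PT2385 inhibited this rise, and mutations in some of the motifs diminished it. The paper also reports less ACE protein with PT2385 in human myoblasts. Sequence outside the windows was not searched, so the absence of cores for *Ace* holds for its windows only.

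Over whole lists, the hypoxia response core was found in 37 of 42 matched shared HIF targets (88.1%) and in 15 of 42 matched contractile genes (35.7%), against 70.0% of the 8852 kept genes with a window and 46.7% of all 27025. The E-box was found in 7 of the HIF targets (16.7%) and 16 of the contractile genes (38.1%), against 17.6% of kept genes and 18.3% of all genes. The CArG box was found in 1 and 7, or 2.38% and 16.7%, against 1.67% of kept genes and 1.81% of all genes. Of the 12 contractile genes that were at least 0.5 lower, 5 held the hypoxia response core, 6 the E-box and 2 the CArG box. A match of letters is not a measured binding site.

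*Epas1* RNA itself could not serve as a check of the treatment, since PT2385 acts on the protein. It was low in every library: 0 FPKM in vehicle and 0.0281 with PT2385 at 4% pO2, and at most 0.273 in the other 4. The latter 4% value corresponds to about 3 fragments, against 0 in vehicle. *Hif1a* had 57.2 and 54.2 FPKM at 4% pO2, and *Arnt* had 15.5 and 15.3. The oxygen sensors were level, with *Egln1* at 79.2 and 77.5 and *Egln3* at 220 and 222. All 9 measured HIF subunits and oxygen sensors lay between -0.10 and 0.14.

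Canonical HIF targets, which hypoxia is known to induce, differed less than 0.5 with the inhibitor, but more of them were lower than higher. *Vegfa*, the main angiogenic growth factor, had 248 FPKM in vehicle and 262 with PT2385 at 4% pO2, where normoxic vehicle had 96.1. *Plod2*, a collagen lysyl hydroxylase, had 67.6 and 55.9 (normoxia 40.8), and *Pfkfb4*, which tunes glycolysis through fructose bisphosphate, had 5.15 and 3.41 (normoxia 2.21). *Car12*, a carbonic anhydrase of the cell surface, had 2.05 and 1.24 (normoxia 0.236), *Rora*, a nuclear receptor, had 1.42 and 0.804 (normoxia 0.158), and *Eno2*, an enolase, had 2.51 and 1.89 (normoxia 1.75). With PT2385 each of these 5 genes lay between its hypoxic and its normoxic vehicle value, and *Vegfa* did not. The 5 were chosen for the size of their difference at 4% pO2, which favours such an order. The share of the other members with this order is not given. *Pfkfb4*, *Car12*, *Rora*, *Eno2* and *Plod2* had the largest differences of the list in size, and all 5 were negative, from -0.48 to -0.27. *Car12* and *Rora* passed the filter on low values only through vehicle at 4% pO2, and without it 48 HIF targets were measured. The 50 members had a median of -0.05, 33 of them below 0 and 17 above, against 0.12 at 20% pO2 and -0.002 at 1% pO2. Among the 30 glycolysis enzymes 22 were below 0, with a median of -0.04 and a range of -0.48 to 0.11.

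**Figure D3:**
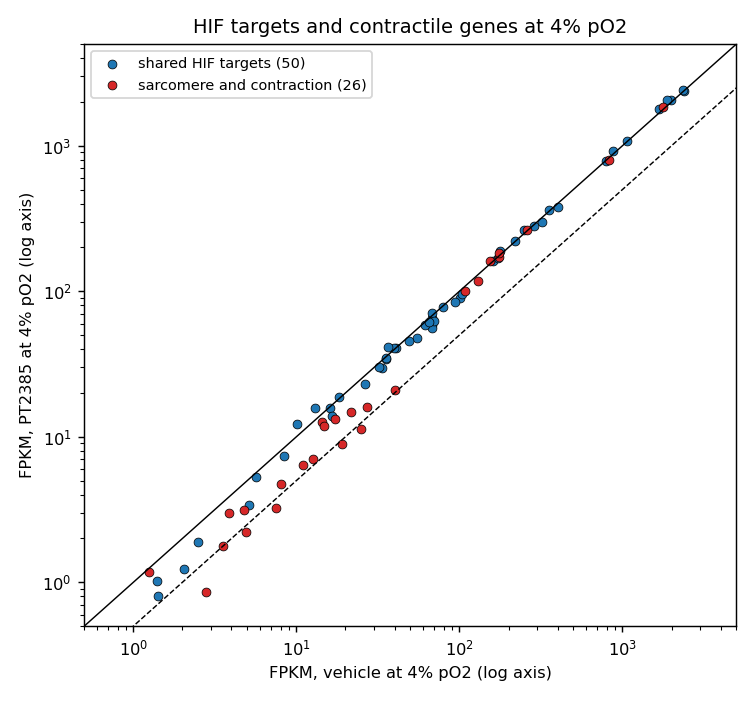
FPKM with PT2385 against FPKM in vehicle at 4% pO2, both on log axes, for the 50 shared HIF targets (blue) and the 26 contractile genes (red). The solid line is equality and the dashed line 0.5 times the vehicle. Most HIF targets lie near equality, but the weakly expressed *Rora*, *Car12* and *Pfkfb4*, with ratios of 0.565, 0.605 and 0.662, lie below it like some of the 12 contractile genes that were at least 0.5 lower, such as *Mylpf* (0.591) and *Tnnc1* (0.684).

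Genes tied to HIF-2 in other tissues did not pass 0.5 either, in 0 of 25 measured. *Cxcl12*, a chemokine for stem and progenitor cells, had 18.5 FPKM in vehicle and 13.1 with PT2385 at 4% pO2, 58.1 and 43.9 at 1% pO2, and 49.8 and 44.6 at 20% pO2, lower with the inhibitor at each pO2. *Pdgfb*, a growth factor for mural cells, had 6.07 and 4.60 at 4% pO2, *Apln*, the vascular peptide apelin, had 31.4 and 25.9, and *Igfbp3*, an IGF carrier, had 30.1 and 25. *Angpt2*, a ligand of the endothelial receptor Tie2, had 2.86 and 2.33. All of these differences were negative at 4% pO2, from -0.46 to -0.21. These genes were named for having the largest differences of the list in size. *Angpt2* passed the filter on low values only through vehicle at 4% pO2, and without it 24 genes were measured. The list had a median of -0.02, with 14 members below 0 and 11 above.

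Of the renin-angiotensin system, 7 of 19 genes were measured at a mean of 1 FPKM or more. *Ace*, the angiotensin-converting enzyme, was below that mean. It had 1.44 FPKM in vehicle and 0.689 with PT2385 at 4% pO2, 1.48 and 0.664 at 1% pO2, and 0.485 and 0.341 at 20% pO2. Its level with the inhibitor was thus lower at every pO2, and the hypoxic vehicle libraries were the highest of the 6. The ratio at 4% pO2 was 0.477. Its counting interval was 0.300 to 0.724 for the shortest coding transcript, with 77 and 31 fragments. For the longest it was 0.353 to 0.646, with 156 and 64 fragments. An annotated antisense gene, *Gm11651*, overlaps *Ace* on the opposite strand over 17750 bases. Strand use in counting is not given, so reads of *Ace* and *Gm11651* cannot be told apart. *Lnpep*, a peptidase that binds angiotensin IV, had 14.7 and 10.1 FPKM at 4% pO2 (-0.50), and *Nln*, the peptidase neurolysin, had 13.2 and 20.5 (0.60). *Agtr2*, a receptor of angiotensin II, was listed at 0 in all 6 libraries, and *Agtr1a* was at 0.0632 and 0 FPKM.

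Across 27 pathway lists, 24 had a median within 0.1 of 0 at 4% pO2, and in 15 no member passed 0.5. The exceptions besides the contractile genes were the replication-dependent histones (median 0.23) and the immediate early genes (0.13). Of 15 measured histone genes 3 were at least 0.5 higher and 1 lower, or 20% and 6.67% against 2.47% and 2.43% of all genes, with *Hist1h2ak* at 1.13 and 4.96 FPKM, *Hist1h2ao* at 5.74 and 10.6, and *Hist1h2ap* at 34.8 and 55.2. These genes are near-identical copies whose reads may be split between them, so their values are uncertain. The same list had a median of -0.11 at 20% pO2 and 0.26 at 1% pO2.

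**Figure D4:**
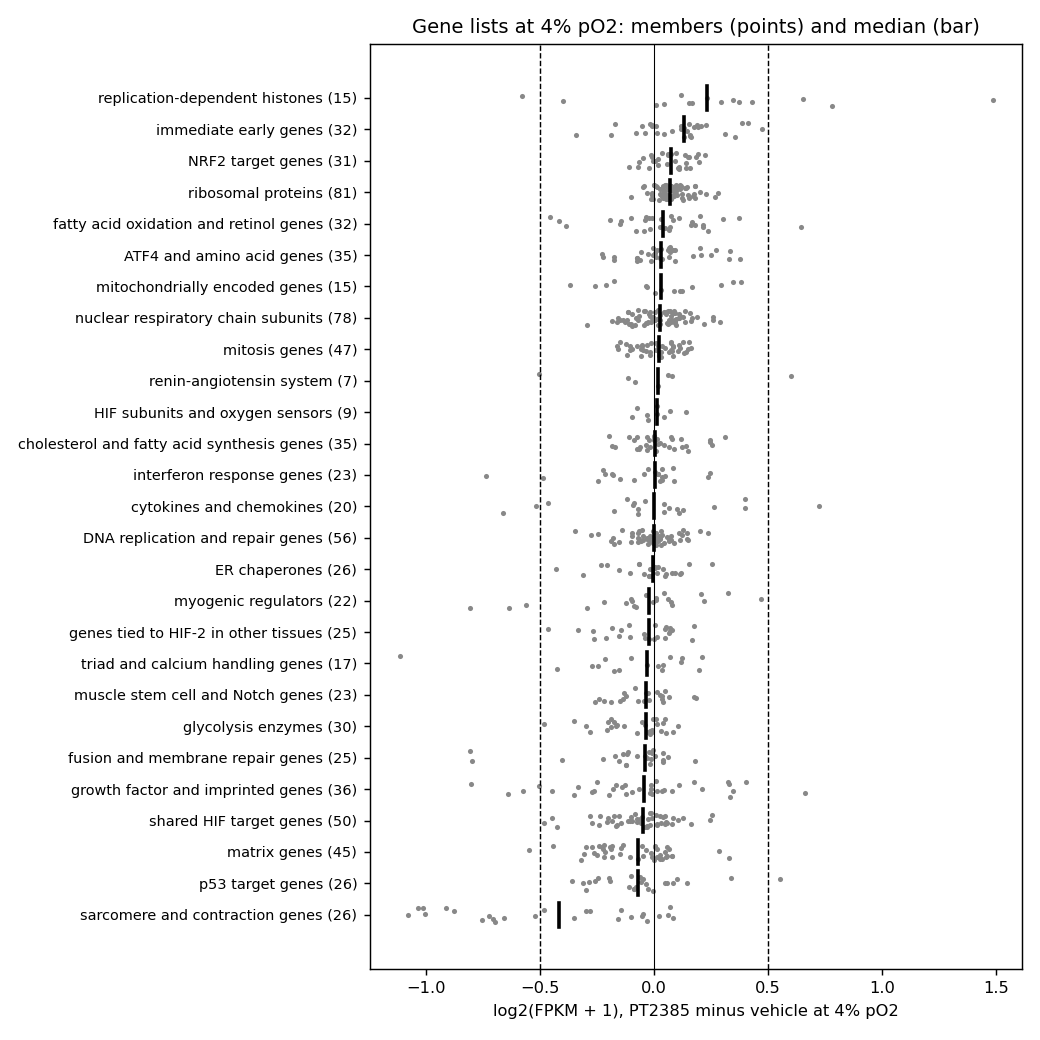
Difference between PT2385 and vehicle at 4% pO2 in log2(FPKM + 1) for the measured members of 27 gene lists, with the number of members in brackets, points for genes and a bar for the median. Dashed lines mark 0.5 and -0.5. The sarcomere and contraction list has a median of -0.42, with 12 of its 26 members past -0.5, and among members averaging 5 FPKM or more its median is -0.16, beside 0.17 for the histones.

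Of 32 immediate early genes, the first to answer growth factors and stress, 23 were above 0 and 0 passed 0.5. *Klf2*, a flow- and statin-responsive factor, had 6.56 FPKM in vehicle and 9.49 with PT2385, *Atf3*, a stress factor, had 1.41 and 2.21, and *Nr4a1*, an orphan nuclear receptor, had 5.29 and 7.22. *Nr4a1* was higher with the inhibitor at each pO2, by 0.42, 0.39 and 0.31 at 20%, 4% and 1%. *Gadd45b*, a stress sensor, went the other way, with 20.1 and 15.7. Ribosomal protein genes were above 0 in 72 of 81, with a median of 0.07, and 63 were above 0 at all 3 pO2 levels. These are short transcripts, and transcript length moved with the difference over all genes. Over genes averaging 10 FPKM or more, the fifth with the shortest transcripts (up to 1822 bases) had a median of 0.06 and the fifth with the longest (from 5001 bases) -0.05. The medians were 0.07 and -0.04 at 20% pO2 and 0.06 and -0.04 at 1% pO2. The part of length in the ribosomal difference was not tested. Of the contractile genes, 11 had transcripts in the shortest class, with 0 above 0 and a median of -0.72. These members were taken at a mean of 1 FPKM or more rather than 10, and the part of length in their difference was not tested.

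Signalling ligands differed in both directions. *Il11*, a cytokine of the IL-6 family, had 58.4 FPKM in vehicle and 97.0 with PT2385 at 4% pO2, 18.2 and 37.9 at 20% pO2, and 97.7 and 143 at 1% pO2. It was higher with the inhibitor at every pO2, by 1.02, 0.72 and 0.54 at 20%, 4% and 1%. *Ccl2*, a monocyte chemokine, had 6.69 and 3.86 FPKM at 4% pO2 (-0.66), and *Il34*, a ligand of the CSF1 receptor, had 8.59 and 5.70 (-0.52). At 20% and 1% pO2 the differences were 0.25 and -0.03 for *Ccl2* and 0.14 and -0.03 for *Il34*.

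Among growth factor and imprinted genes 4 of 36 (11.1%, against 2.43% of all genes) were at least 0.5 lower and 1 (2.78%, against 2.47%) was at least 0.5 higher. *H19*, an imprinted noncoding RNA, had 125 FPKM in vehicle and 79.7 with PT2385 at 4% pO2, 819 and 459 at 20% pO2, and 188 and 128 at 1% pO2, lower with the inhibitor at each. *Rian*, *Mirg* and *Meg3* are noncoding RNAs of 1 maternally expressed cluster. *Rian* was at 3.56 and 1.62 FPKM and *Mirg* at 1.78 and 0.867, but *Meg3* went the other way, at 0.273 and 1.02. Both 4% libraries were below the other 4 for each of them, where *Meg3* ranged from 14.0 to 35.4, *Rian* from 25.5 to 51.1 and *Mirg* from 2.41 to 4.11. *Peg10*, a retrotransposon-derived imprinted gene, had 19.1 and 13.1 (-0.51).

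Metabolic lists were level. Of 78 nuclear respiratory chain subunits, 15 mitochondrially encoded genes, 35 cholesterol and fatty acid synthesis genes, 35 ATF4 and amino acid genes, 26 ER chaperones and 31 NRF2 target genes, 0 passed 0.5. The 32 fatty acid oxidation and retinol genes held 1, *Dhrs3*, a reductase that turns retinal to retinol, with 2.59 and 4.61 FPKM at 4% pO2 (0.64) and 1.77 and 3.19 at 20% pO2 (0.60). *Acadm*, the medium-chain acyl-CoA dehydrogenase, was at 41.8 and 30.2 (-0.45), and *Pdk4*, a kinase that shuts off pyruvate oxidation, at 55.5 and 42.2 (-0.39). *Pdk4* was lower with the inhibitor at every pO2. Of 45 matrix genes 1 passed 0.5, *Mgp*, an inhibitor of calcification, with 3.09 and 1.80. Of 23 interferon response genes it was *H2-T23*, a nonclassical MHC gene, with 2.90 and 1.34, which passed the filter only through vehicle at 4% pO2, and of 26 p53 targets *Fas*, a death receptor, with 0.846 and 1.71.

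Beyond the lists, the 20 lowest and 20 highest genes were taken from the 8490 protein-coding genes with a mean of at least 5 FPKM that had a proper name. *Gpx3* was the lowest. It had 18.6 FPKM in vehicle and 2.59 with PT2385 at 4% pO2, 54.8 and 50.9 at 20% pO2, and 31.6 and 31.0 at 1% pO2. Its 4% PT2385 value was below every other library, and vehicle at 4% pO2 was the next lowest. The ratio was 0.139, with a counting interval of 0.0951 to 0.200 for the shortest coding transcript. *Gpx3* lies on chromosome 11 from 54902453 to 54910377 (GRCm38). *Slc10a7*, on chromosome 8 from 78509346 to 78734003, was the highest. It had 8.87 FPKM in vehicle and 62.8 with PT2385 at 4% pO2, and 30.0 to 35.3 in the other 4 libraries. Vehicle at 4% pO2 was thus below, and PT2385 at 4% pO2 above, all 4 libraries of the other pO2 levels. The ratio was 7.08, with a counting interval of 6.05 to 8.31.

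A limma fit with an interaction term, added after the values were seen, compared the PT2385 difference at 4% pO2 with the mean of those at 20% and 1% pO2. It assumes that the 4% libraries vary like the others and has 1 residual degree of freedom. Of 11967 genes 13 (0.109%) had an adjusted p below 0.05, of which 11 were listed at 0 in at least 1 library and 11 were not protein-coding. The 2 protein-coding genes were *Slc10a7*, with an estimate of 2.69, and *Gpx3*, with -2.38. These are the genes that the same 4% values had already ranked first, and the error of the fit comes from how alike the 20% and 1% differences are, so the calls are a description and no replicate check of the 4% pair.

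The other genes of the lowest 20 differed by -0.67 to -1.08. Besides 6 muscle genes (*Actc1*, *Myl1*, *Acta1*, *Mymk*, *Mylpf* and *Tnni1*) they included *Slc15a4*, a lysosomal transporter of histidine and peptides, with 11.6 and 5.84 FPKM at 4% pO2 and 6.59 to 7.14 in the other 4 libraries. *Braf*, a kinase upstream of ERK, had 8.73 and 4.49 at 4% pO2 and 4.34 to 5.17 elsewhere, and *Pdik1l*, a kinase, had 8.67 and 4.72 and 4.81 to 4.95 elsewhere. For these 3 genes vehicle at 4% pO2 was the library farthest from the rest. *Ctsh*, the lysosomal protease cathepsin H, had 16.9 and 10.1 at 4% pO2 and 35.8 to 47.7 elsewhere, so its 4% PT2385 value was the lowest. In 15 of the 20 vehicle at 4% pO2 was the highest library, and in 11 PT2385 at 4% pO2 was the lowest. The same 4% values chose these genes, which favours such an order. Among the 180 protein-coding genes at least 0.5 lower at 4% pO2, the shares were 51.1% and 47.8%. At 20% pO2 15 of the 20 were below 0, at 1% pO2 12 were, and 11 were below 0 at both.

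Among the 20 highest, differences ran from 0.59 to 2.69. *Lbhd1* had 5.95 and 25 FPKM at 4% pO2 and was higher with PT2385 at 20% pO2 (14.9 and 32.4) and 1% pO2 (13.1 and 21.2) as well. Its annotation overlaps other protein-coding genes on the same strand, as does that of the protocadherin *Pcdhgc4*, at 9.30 and 20.2, so reads of both may be shared. Of the 40 genes at both ends, 18 have an annotated overlapping gene and 8 an overlapping protein-coding one, *Acta1*, *Braf*, *Slc15a4* and *Selenop* on the opposite strand among them, and since strand use in counting is not given, their reads and those of the partner cannot be told apart. *Selenop*, the plasma selenium carrier, had 1.75 and 6.19 at 4% pO2, 12.6 and 6.53 at 20% pO2, and 6.62 and 7.01 at 1% pO2. *Txnrd3*, a thioredoxin and glutathione reductase, had 15.6 and 35.6 at 4% pO2, 7.71 and 12.2 at 20% pO2, and 17.7 and 21.9 at 1% pO2. *Glrx*, glutaredoxin, had 13.9 and 23.9 at 4% pO2 and 24.1 to 36.9 elsewhere, and *Rhoj*, a small GTPase of endothelial and migrating cells, had 1.49 and 3.05 and 6.15 to 11.1 elsewhere. In 15 of the 20 vehicle at 4% pO2 was the lowest of the 6 libraries, and in 6 PT2385 at 4% pO2 was the highest. Choice by the same 4% values favours such an order here too. Among the 115 protein-coding genes at least 0.5 higher at 4% pO2, the shares were 42.6% and 59.1%. At both other pO2 levels 6 of the 20 were also above 0.

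**Figure D5:**
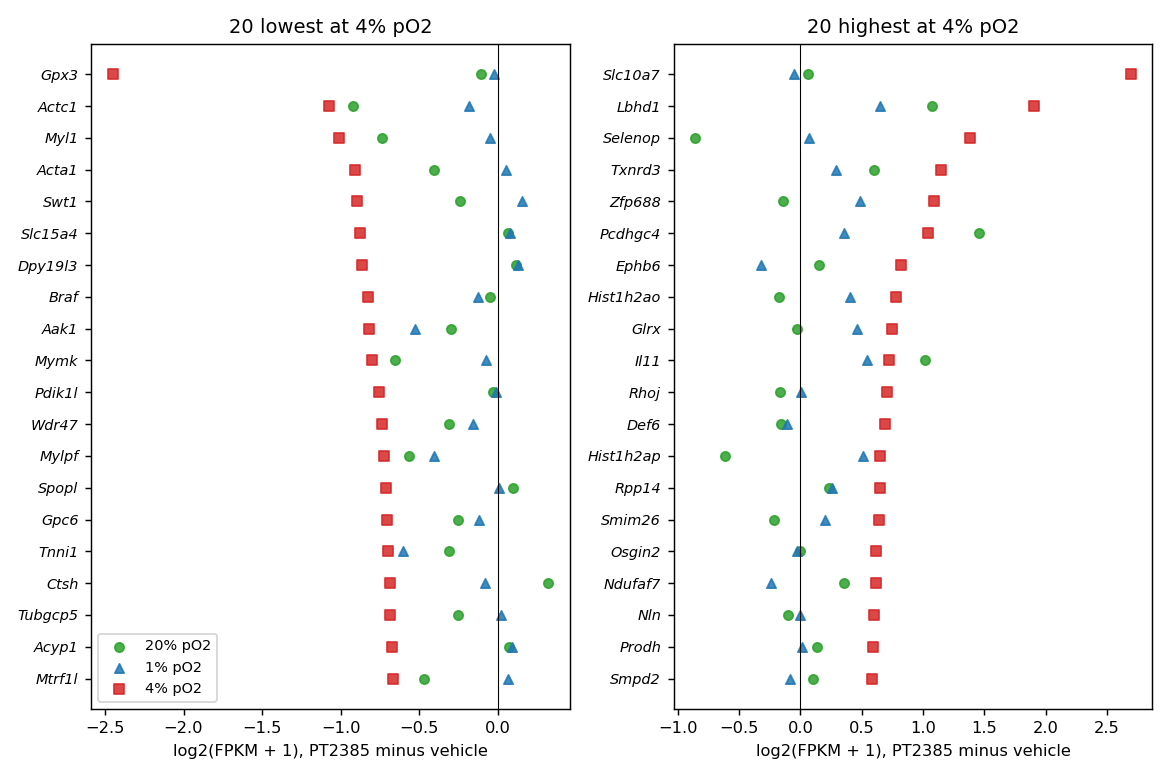
Difference between PT2385 and vehicle in log2(FPKM + 1) at 20% pO2 (green circles), 4% pO2 (red squares) and 1% pO2 (blue triangles) for the 20 lowest and 20 highest protein-coding genes at 4% pO2. The 4% values chose the genes, so they lie outermost for most; *Slc10a7* and *Gpx3* have values near 0 at both other levels, while *Actc1*, *Myl1*, *Mymk* and *Mylpf* are also below -0.5 at 20% pO2.

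The PT2385 comparisons at 20%, 4% and 1% pO2 share no library, so the same genes can be followed from one to another. At 20% pO2 186 genes were at least 0.5 higher and 190 at least 0.5 lower, and at 1% pO2 199 and 150. Of the 180 protein-coding genes at least 0.5 lower at 4% pO2, 14 (7.78%) were also at least 0.5 lower at 20% pO2, where they made up 13.7% of 102, and 12 (6.67%) at 1% pO2, where they made up 17.4% of 69. Over all protein-coding genes these shares were 0.940% and 0.636%, and 3 and 4 of the 180 were at least 0.5 higher there. Of the 115 at least 0.5 higher, 12 (10.4%) were so at 20% pO2 and 10 (8.70%) at 1% pO2, against 0.848% and 0.673% of all protein-coding genes. Another 10 of the 115 were at least 0.5 lower at 20% pO2 and 6 at 1% pO2, and 46.1% and 55.7% of the 115 had the same sign at 20% and 1% pO2. Of the 180, 63.9% and 60% had the same sign there. At all 3 levels 3 protein-coding genes were at least 0.5 higher, *Il11*, *Slpi* and *Lbhd1*, and 1 was at least 0.5 lower, *Selenoo*, a mitochondrial selenoprotein named after its values were seen, with 4.47 and 2.72 FPKM at 4% pO2. *Slpi*, a protease inhibitor, had 6.19 and 9.63 at 4% pO2, 3.24 and 6.19 at 20% pO2, and 6.17 and 12.6 at 1% pO2. Across all 11967 genes, which are not independent replicates, the differences at 4% pO2 had r = 0.05 (Spearman's rho 0.21) with those at 20% pO2 and r = 0.09 (rho 0.18) with those at 1% pO2.

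The libraries at the 3 pO2 levels served as replicates of treatment in a single test. limma, fitted with a term for pO2 and 1 for treatment, called 0 of 11967 genes (0%) higher and 0 (0%) lower at an adjusted p below 0.05, with 841 and 613 at an unadjusted p below 0.05. The lowest limma adjusted p was 0.159. Without the 4% pair limma called 2 genes higher and 3 lower, and without the 1% pair 2 higher and 0 lower. *H19* was lower by -0.68 over the 3 levels (SE 0.06, limma adjusted p = 0.35), *Pdpn*, a membrane glycoprotein of stromal and lymphatic cells, was higher by 0.33 (SE 0.03), *Il11* by 0.76 (SE 0.09) and *Igfbp5*, an IGF carrier of muscle cells, by 0.47 (SE 0.06), each in 3 of 3 comparisons and with limma adjusted p from 0.345 to 0.354. *Pdpn* had 117 and 151 FPKM at 4% pO2, and *Igfbp5* had 214 and 269. *Odc1*, the decarboxylase that makes putrescine, had 518 and 631, and *Tubb2b*, a tubulin, had 91.7 and 112. Of the contractile genes *Mylpf* came closest, at -0.57 (SE 0.07, limma adjusted p = 0.35).

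Markers of other cell types were looked for in both libraries. Of 15 leukocyte markers 7 were at 0 in both, among them *Ptprc*, the pan-leukocyte CD45, and 4 were measured at a mean of 1 FPKM or more. The summed level of the 15 was 95.7 FPKM in vehicle and 105 with PT2385 at 4% pO2, of which *Laptm5*, a lysosomal protein, made up 80.7 and 91.5. The other 4 libraries had sums of 6.42 to 31.6. Endothelial markers summed to 8.66 and 7.83 FPKM, with *Kdr* at 0 in both, *Cdh5* at 0.0447 and 0, and *Flt1*, which HIF can also induce, at 3.30 and 2.04. Smooth muscle and pericyte markers summed to 147 and 131, with *Myh11* at 0 and 0.00827, *Acta2*, which myoblasts also make, at 46.1 and 34, and *Cspg4* at 2.22 and 1.05. Fibroblast markers summed to 23.9 and 21.3 and adipocyte markers to 5.19 and 5.25, with *Adipoq* at 0 in both, and Schwann cell markers to 2.5 and 2.14. Among the markers with a mean of at least 1 FPKM, 0 were at least 0.5 higher or lower.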

How the data were processed

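Total RNA of Pax7-ZSGreen primary myoblasts was sequenced, 1 library per condition (cultures pooled by the study's supplementary methods). The table the authors deposited lists every gene with 6 values, which were read as FPKM on the strength of the values and the tools named. The supplementary methods name TopHat2 and GRCm38 gene models. The submitters' notes list HISAT2 2.1.0, SAMtools 1.3.1, Cufflinks and Cuffdiff 2.2.1. Strand and normalization options are not given in the sources used here. The unit was inferred, and Cuffdiff scales libraries and splits reads between isoforms, which can move single genes.

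Values were used as deposited. Of 54834 identifiers 54719 matched GENCODE M21 (GRCm38). Genes with a mean FPKM of at least 1 were kept, and differences were taken as log2(FPKM + 1), PT2385 minus vehicle. Limits were 1 and 0.5. limma 3.58.1 (R 4.3.3), with a variance trend and Benjamini-Hochberg adjustment, was fitted to the 6 libraries with pO2 and treatment as terms, and was tested on simulated data. With 1 library per condition, p-values measure the spread between pO2 levels only. Depth was taken as the inverse of the median FPKM times length in kilobases among values of 0.035 to 0.065, the range of 1 fragment, in single-transcript genes of 2500 to 4000 bases, and intervals are exact binomial at 95%. Alternatives were a pseudocount of 0.1, other filters, rescaling and leaving out a pO2 level.

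Genes named are the 20 lowest and 20 highest protein-coding genes (mean of at least 5, predicted names left out), up to 5 members of each of 34 lists with the largest difference, genes central to the study, protein-coding genes set apart, up to 10 per direction with the smallest limma p, and all cell type markers. *Agtr1a*, *Agtr2*, *Egln1*, *Egln3*, *Mb*, *Myh3*, *Myog*, *Selenoo* and the other selenoprotein genes, *Slc16a3*, *Tnnc1*, *Tpm3*, *Ttn*, *Vim* and the small RNAs were named after their values were seen. The genes and lists were chosen with earlier results of these data known. Promoters came from RefSeq and were available for 27025 symbols.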

Additional observations from a re-analysis of the deposited data

Results flagged for a closer look

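*Slc10a7* and *Gpx3* had differences with PT2385 at 4% pO2 that differed from those at the other pO2 levels. In the limma interaction fit, added after the values were seen, the difference at 4% pO2 exceeded the mean of those at 20% and 1% pO2 by 2.69 for *Slc10a7* and lay -2.38 from it for *Gpx3*. Both passed its threshold, but the same 4% values had singled them out, the 4% arm has 1 library a side, and the fit has 1 residual degree of freedom, so no p-value is given. *Slc10a7* differed by 0.06 at 20% and -0.05 at 1% pO2, and *Gpx3* by -0.11 and -0.03. Both 4% libraries of *Slc10a7*, at 8.87 and 62.8 FPKM, lay outside the range of the other 4 libraries, as did both of *Gpx3*, at 18.6 and 2.59. An annotated processed pseudogene, *Gm2253*, overlaps *Slc10a7* on the same strand over 414 bases, and its part in the value was not tested. With 1 pooled library per condition, a difference between treatments and one between libraries cannot be told apart.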

How the results depend on the processing

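Counts of genes at 4% pO2 depended on how low values were treated. At least 2-fold higher were 74 genes, against 140 with a pseudocount of 0.1, 116 with no filter, 36 with a mean of at least 5 FPKM and 14 among protein-coding genes. At least 2-fold lower were 58, against 129, 100, 17 and 13. At least 0.5 higher were 296, against 478, 642, 100 and 115, and at least 0.5 lower were 291, against 525, 570, 100 and 180. The cause was not tested beyond the number of genes that each setting admits. Of the contractile genes 12 of 26 were at least 0.5 lower, against 6 of 17 with a mean of at least 5, 13 of 26 with a pseudocount of 0.1 12 of 26 after rescaling and 11 of 25 with the filter set on the other 5 libraries, and their median of -0.42 was -0.16 with a mean of at least 5. Of the shared HIF targets 0 of 50 passed 0.5, against 3 with a pseudocount of 0.1, all lower. limma over the 3 pO2 levels called 0 genes in each direction, 2 higher and 3 lower without the 4% pair, and 2 higher without the 1% pair. The interaction fit called 8 genes above the other levels, against 4 with a pseudocount of 0.1. No named gene reversed under the pseudocount or the rescaling. Vehicle and PT2385 were paired within pO2 level in the limma fit, and without the pO2 term it called 0 genes, with 32 higher and 20 lower at an unadjusted p below 0.05. The spread was widest at low expression, and the part of depth in this was not tested.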

Other observations

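Of the 40 genes at the ends of the list, *Gpx3*, *Selenop* and *Txnrd3* encode selenoproteins, in which selenocysteine is read from a UGA codon. After this was seen, all 24 mouse selenoprotein genes were looked up, 20 of which were measured. Most were level at 4% pO2: 15 lay within 0.25 of 0 and the median was -0.02. *Gpx4*, the lipid peroxidase, was at 380 FPKM in both libraries, *Gpx1*, the cytosolic peroxidase, at 223 and 220, and *Txnrd1*, the cytosolic thioredoxin reductase, at 1248 and 1206. Of the 20, 2 were at least 0.5 higher (*Selenop*, *Txnrd3*) and 2 at least 0.5 lower (*Gpx3*, *Selenoo*), against 4 past 0.5 in either direction at 20% pO2 and 1 at 1% pO2. Over all genes 2.47% were at least 0.5 higher and 2.43% lower at 4% pO2. These shares were 1.55% and 1.59% at 20% pO2 and 1.66% and 1.25% at 1% pO2. *Selenoo* was at 19.7 and 6.38 FPKM at 20% pO2 and at 11.4 and 2.00 at 1% pO2, a larger difference than at 4% pO2. The list was chosen for *Gpx3*, *Selenop* and *Txnrd3*, which favours the counts at 4% pO2, so no test was made.

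Small RNAs in the table were unstable between libraries. *Mir703* was at 62.1 FPKM in vehicle and 0 with PT2385 at 4% pO2, and at 171 to 479 in the other 4 libraries. *Gm24500*, a snoRNA, was at 0 and 14.3 at 4% pO2, at 16.0 and 0 at 20% pO2 and at 17.5 and 0 at 1% pO2. Of the 29 genes set apart, 11 were at 0 in every library of the other pO2 levels.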
